A study of Mus musculus with 11 samples.

Results

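Ift27, Nmral1, Med27 and Ccdc90b are 4 of the 32531 genes counted in this mouse TRAP-seq series. They were chosen by their measured levels: each was higher in all 3 cocaine libraries of immunopurified RNA than in all 3 yoked libraries. Their values in that comparison are therefore described here, with no p-value. All 4 met the rule on raw counts, on counts corrected for library size (CPM) and on CPM scaled by TMM (edgeR's trimmed mean of M-values), and all 4 passed the expression filter that left 16417 genes. Of those 16417 genes, 505 (3.08%) met the same rule and 418 (2.55%) met its reverse, so the 4 are a small share of the genes with this order of libraries.

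TRAP-seq (translating ribosome affinity purification with sequencing) isolates ribosomes that carry an EGFP-tagged Rpl10a and sequences the RNA they hold. All groups were adult mice of the Glt25d2-EGFP/Rpl10a line DU9, in which regulatory DNA of Glt25d2 (now Colgalt2) drives the tag in pyramidal neurons of the deep cortex. Immunopurified (IP) RNA came from mice that self-administered saline intravenously, mice that self-administered cocaine intravenously in short-access sessions, and yoked controls, with 3 libraries each. The sources used here do not say what the yoked mice received or whether a library is 1 mouse or a pool, so p-values measure the spread between libraries, which may be technical. One input library (total RNA, saline group) and one unbound library (RNA left after the pull-down, cocaine group) complete the 11.

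Gene counts ran from 20926712 in the unbound library to 53862653. Each group ran on its own lane (saline IP on 6, cocaine IP on 2, yoked IP on 3, input on 7, unbound on 1), so group and lane cannot be told apart. The 3 IP libraries numbered 1 stood apart from the other 6: 9083 of 16417 genes (55.3%) passed the edgeR test for that difference, 60.4% had an unadjusted p under 0.05, and the summed level of 8 nuclear noncoding RNAs was 205.4 to 414.2 CPM in them against 2442 to 7247 CPM in the rest. The labels give cerebral cortex, whereas the extraction text names whole striatum. The 13 layer 5 pyramidal tract markers summed to 656.9 to 1415 CPM and the 12 striatal projection neuron markers to 570.9 to 1071 CPM over the 9 IP libraries, and in each of the 5 sample groups every gene of both lists had counts. Layer 5 markers summed to 1219 to 1415 CPM in the libraries numbered 1 and to 656.9 to 850.4 CPM in the other IP libraries. In the saline input they summed to 691.5 CPM, and the nuclear noncoding RNAs to 5227 CPM. Astrocyte markers summed to 2643 CPM in the input and to 2479 to 3033 CPM in IP libraries numbered 2 and 3. Those IP libraries thus showed little or no enrichment over the input in layer 5 markers, and little or no depletion of astrocyte markers. In nuclear noncoding RNAs cocaine replicate 3 stood apart from them, at 2442 CPM. The other IP libraries numbered 2 and 3 were at 4837 to 7247 CPM. In tissue libraries like these, fewer cells of a type and less RNA per cell cannot be told apart.

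The 4 genes act in different parts of the cell. Ift27 encodes a Rab-like small GTPase of the intraflagellar transport complex B (IFT-B), the train that carries cargo along cilia; with its partner Hspb11 (Ift25) it helps the BBSome, an adaptor complex, take receptors out of the primary cilium that most neurons bear. Med27 encodes a subunit of Mediator, the complex that links transcription factors to RNA polymerase II. Nmral1 encodes an NADPH-sensing protein (HSCARG) that has been tied to argininosuccinate synthetase and to NF-kappaB signalling. Ccdc90b encodes a mitochondrial coiled-coil protein and is the paralog of Mcur1, a regulator of the mitochondrial calcium uniporter.

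In GENCODE M21 on GRCm38, the assembly of mm10, Ift27 (ENSMUSG00000016637) lies on the minus strand of chromosome 15 from 78159463 to 78174107. Nmral1 (ENSMUSG00000063445) lies on the minus strand of chromosome 16 from 4710059 to 4719356. Med27 (ENSMUSG00000026799) covers 29346819 to 29524793 on the plus strand of chromosome 2, and Ccdc90b (ENSMUSG00000030613) covers 92561149 to 92582294 on the plus strand of chromosome 7. Counts are sums over exons. Exons of Ankrd42 on the opposite strand share 257 bases (14.3%) with those of Ccdc90b, and those of Gm13402 share 145 bases (4.4%) with those of Med27. Gm13402 matched no gene that was counted, and in RefSeq Ankrd42 lies 1.89 kb from Ccdc90b without overlap. No source used here states the annotation or strand setting of the counting. Whether reads in the stretch shared in GENCODE by Ankrd42 and Ccdc90b were lost or assigned to 1 gene is therefore not known. Exons of Ift27 and Nmral1 overlapped no other annotated gene.

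The 250 bases before RefSeq's start of transcription are shown for the 3 genes that matched RefSeq's promoter table (GRCm38.p6), to let a reader see which short sequences the chosen genes have there. Capitals mark matches on either strand to the motifs searched: the CCAAT box (CCAAT), the cAMP response element half-site (TGACG), the X-box half-site of RFX factors, known from genes of cilia (GTTGCC), the E-box (CACGTG) and the AP-1 site (TGACTCA). Ift27 is chr15:78174082-78174331 on the minus strand, Med27 is chr2:29346560-29346809 on the plus strand (the first of its 2 listed starts) and Ccdc90b is chr7:92560899-92561148 on the plus strand.
Ift27: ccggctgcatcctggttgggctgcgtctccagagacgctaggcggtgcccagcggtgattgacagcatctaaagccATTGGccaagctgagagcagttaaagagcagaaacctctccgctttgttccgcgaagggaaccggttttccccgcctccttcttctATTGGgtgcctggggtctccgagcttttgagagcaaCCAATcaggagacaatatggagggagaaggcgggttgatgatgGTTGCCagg
Med27: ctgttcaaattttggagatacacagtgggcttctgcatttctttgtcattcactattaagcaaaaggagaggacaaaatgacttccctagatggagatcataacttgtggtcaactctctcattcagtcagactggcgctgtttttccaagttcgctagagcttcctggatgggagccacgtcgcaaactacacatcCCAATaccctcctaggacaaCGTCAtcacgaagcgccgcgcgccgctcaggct
Ccdc90b: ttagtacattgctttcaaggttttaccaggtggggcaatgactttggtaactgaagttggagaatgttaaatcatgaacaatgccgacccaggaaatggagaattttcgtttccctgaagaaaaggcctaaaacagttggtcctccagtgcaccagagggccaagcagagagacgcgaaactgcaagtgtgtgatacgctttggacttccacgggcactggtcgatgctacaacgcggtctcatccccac
The Ift27 window held 3 CCAAT boxes and 1 X-box half-site, the latter from 9 to 4 bases before RefSeq's start. GENCODE starts Ift27 further out, so the last 26 bases of this window, X-box half-site included, lie inside the gene in GENCODE. The Med27 window held 1 CCAAT box and 1 cAMP response element half-site, and the Ccdc90b window held none of the 5 motifs. The E-box and the AP-1 site had 0 matches in each of the 3 windows. Over 32851 windows of the same length in the table, 33.8% held a CCAAT box, 17.8% a cAMP response element half-site, 10.4% an X-box half-site, 6.02% an E-box and 4.46% an AP-1 site. The 3 windows shared no motif across all of them. A match is a description of letters and not a binding site.

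Ift27 separated cocaine from both other groups with the smallest spread of the 4. Its level was 16.4, 13.7 and 15.1 CPM in cocaine IP replicates 1, 2 and 3. It was 10.5, 10.4 and 9.94 CPM in yoked and 10.6, 11.5 and 9.99 CPM in saline. All 3 cocaine libraries were thus above all 6 others, and saline and yoked overlapped. Means were 15.1 ± 1.36 CPM in cocaine, 10.7 ± 0.737 in saline and 10.3 ± 0.277 in yoked (SD, n = 3 each). The log2 fold change was 0.56 ± 0.16 (SE) against yoked, a ratio of 1.48, and 0.51 ± 0.16 against saline, a ratio of 1.42. Within replicate numbers 1, 2 and 3 the log2 difference from yoked was 0.67, 0.41 and 0.58, and from saline 0.66, 0.26 and 0.59. These rest on 337 to 690 counts per IP library.

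Nmral1 had the largest average difference and the most uneven cocaine group. It was at 15.6 CPM in cocaine replicate 1 and at 9.402 and 8.94 CPM in replicates 2 and 3. Yoked libraries stood at 7.20, 5.74 and 6.31 CPM and saline libraries at 7.12, 7.02 and 6.26 CPM. All 3 cocaine libraries were above all 6 others, with replicate 1 far above its own group. The means were 11.3 ± 3.73 CPM in cocaine, 6.80 ± 0.468 in saline and 6.42 ± 0.739 in yoked (SD, n = 3 each). The log2 fold change was 0.83 ± 0.25 (SE) against yoked and 0.75 ± 0.25 against saline. Without cocaine replicate 1 these became 0.505 ± 0.18 and 0.43 ± 0.18, both more than 1.5 times smaller. The within-number differences from yoked were 1.13, 0.715 and 0.48.

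Med27 was the most abundant of the 4 and separated the groups by less. Its cocaine libraries were at 47.6, 38.3 and 40.1 CPM, its yoked libraries at 32.95, 32.7 and 26.3 CPM and its saline libraries at 32.9, 34.7 and 35.1 CPM. The cocaine libraries lay above the 6 others, although replicate 2 was only a little above the highest saline library, and saline and yoked overlapped. Means were 42.0 ± 4.92 CPM in cocaine, 34.2 ± 1.15 in saline and 30.6 ± 3.74 in yoked (SD, n = 3 each). The log2 fold change was 0.46 ± 0.16 (SE) against yoked and 0.31 ± 0.16 against saline. The latter fell to 0.20 without cocaine replicate 1, again by more than 1.5 times, and to 0.17 without all libraries numbered 1.

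Ccdc90b differed from the other 3 genes in where saline stood. It was at 17.2, 12.6 and 12.8 CPM in cocaine, at 9.80, 9.91 and 9.76 CPM in yoked and at 12.4, 12.5 and 13.7 CPM in saline. Cocaine replicates 2 and 3 lay inside the saline range, and all 3 saline libraries were above all 3 yoked ones, so for this gene the yoked group was the one apart. Means were 14.2 ± 2.62 CPM in cocaine, 12.9 ± 0.711 in saline and 9.83 ± 0.0768 in yoked (SD, n = 3 each). The yoked SD is 0.782% of the mean, smaller than the counting error of 5.08% to 5.50% that 331 to 387 counts per library give. The log2 fold change of cocaine was 0.54 ± 0.18 (SE) against yoked and 0.16 ± 0.18 against saline, and that of yoked against saline was −0.38 ± 0.18. Without cocaine replicate 1 the first became 0.36 ± 0.14 and the second turned to −0.02 ± 0.15, and without all libraries numbered 1 the second was −0.04 ± 0.16.

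**Figure D1:**
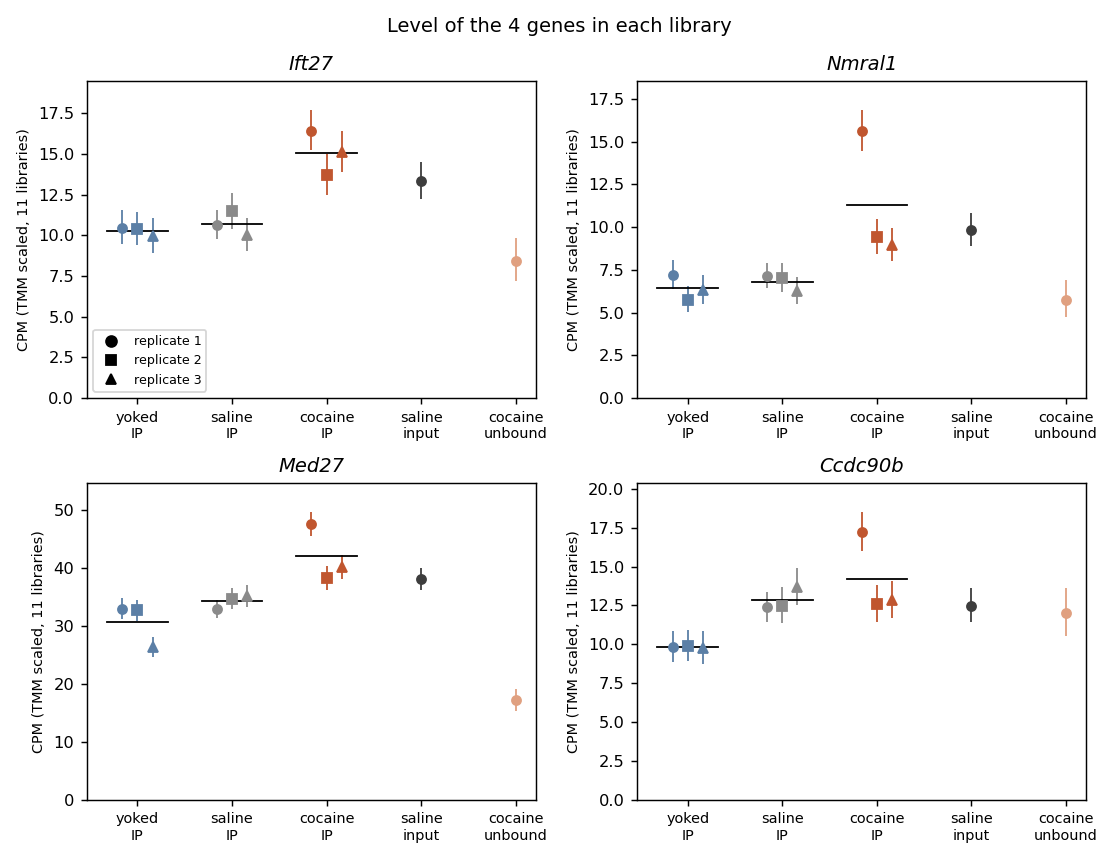
Level of Ift27, Nmral1, Med27 and Ccdc90b in each of the 11 libraries, as TMM-scaled CPM on axes that start at 0, with exact Poisson 95% intervals for counting error; black lines are means of the 3 IP libraries of a group. Cocaine IP libraries sit above yoked ones in every panel, and in the Ccdc90b panel saline overlaps cocaine (12.4 to 13.7 against 12.6 to 17.2 CPM).

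In the edgeR quasi-likelihood fit across 16417 genes, 0 genes (0%) passed an adjusted p of 0.05 in cocaine against yoked, and the same count and share held for cocaine against saline and for yoked against saline. DESeq2 called 0 genes in each of these comparisons. An unadjusted p under 0.05 was reached by 182 genes (1.11%), 168 genes (1.02%) and 66 genes (0.402%) in this order. These shares lie below the share that threshold would give in data without differences, so these p-values are conservative. This fit has no term for the replicate number, so differences between the numbers count as spread within groups. With such a term, edgeR's lowest adjusted p in cocaine against yoked was 0.13 instead of 0.972. The 4 genes were not those with the largest fold change: by log2 fold change over yoked, Nmral1 ranked 334, Ift27 1111, Ccdc90b 1211 and Med27 1744 of 16417. By the gap between the lowest cocaine and the highest yoked library they ranked 45, 26, 34 and 78, with log2 gaps of 0.29, 0.38, 0.345 and 0.20. At the edge of the rule, among named genes of at least 5 CPM, Fam58b was just inside (lowest cocaine 14.517 and highest yoked 14.5146 CPM) and Cradd just outside (11.1255 and 11.1287 CPM).

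The description "highest after cocaine" holds for 3 of the 4. In 137 of 16417 genes (0.835%) all cocaine libraries lay above all yoked and all saline libraries; Ift27, Nmral1 and Med27 are among them and Ccdc90b is not. All cocaine above all saline libraries was the order of 3.11% of genes and the reverse of 2.28%. Ccdc90b had all yoked below all saline libraries, as did 2.15% of genes, with 2.14% the other way round. Cocaine against saline shares its cocaine libraries with the rule, and yoked against saline shares its yoked libraries with it, so neither is independent of the choice. Yoked and saline values for Ift27 and Nmral1 lay close together, with log2 fold changes of −0.05 ± 0.16 and −0.08 ± 0.25 (SE), and that of Med27 was −0.15 ± 0.16. With 1 library left out these ran from −0.099 to −0.022, from −0.171 to −0.006 and, for Med27, from −0.21 to −0.052, the last without yoked replicate 3.

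**Figure D2:**
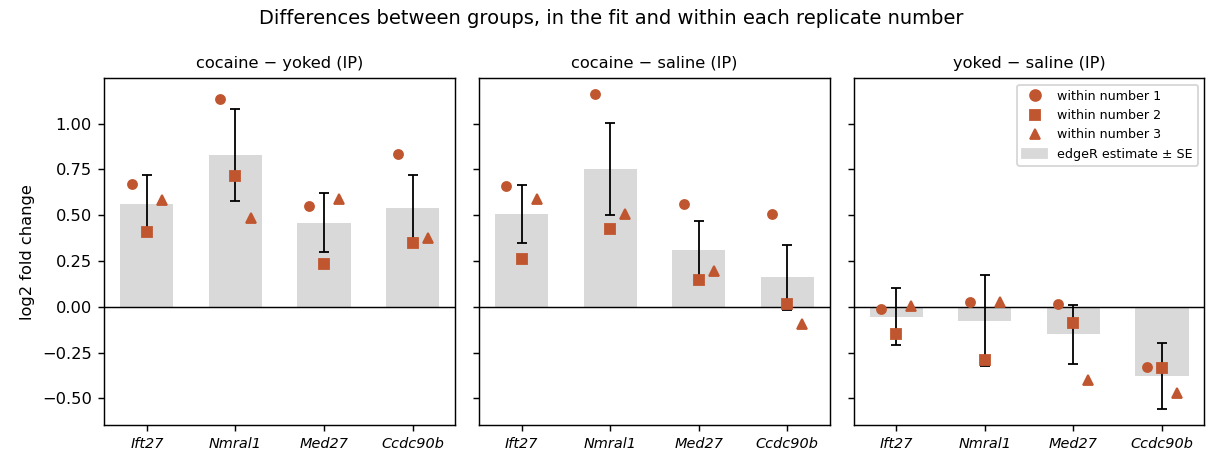
Log2 fold change of each gene in the 3 comparisons of IP libraries: grey bars with lines are edgeR estimates ± SE over 9 libraries, and points are differences between libraries of the same replicate number. In cocaine minus yoked all 12 points are above 0, with the largest, 1.13, for Nmral1 within number 1.

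Cocaine replicate 1 was the highest of the 9 IP libraries for each of the 4 genes. The replicate number is balanced over the groups and did not enter the rule directly, so it was tested. The rule still used these libraries, and it favours genes that shift little between replicate numbers. Missing calls for the 4 genes are therefore not independent of the choice. With group in the model, Nmral1 rose in the libraries numbered 1 relative to the average of the other 2 numbers, by a log2 fold change of 0.41 ± 0.16 (SE; edgeR adjusted p = 0.038), and the call ended without cocaine replicate 1 (0.19 ± 0.17, adjusted p = 0.362). It also ended with DESeq2's size factors, with library size alone and without 5 other single libraries. Ift27 (0.09 ± 0.13, adjusted p = 0.551), Med27 (0.14 ± 0.11, 0.297) and Ccdc90b (0.15 ± 0.14, 0.379) did not pass edgeR's test, and without cocaine replicate 1 their values were 0.027, 0.052 and −0.03. Number 3 against number 2 gave log2 fold changes from −0.07 to 0.05 for the 4, with 0 of 16417 genes called by edgeR, 8 by DESeq2 and 320 genes (1.95%) at an unadjusted p under 0.05. In cocaine replicate 1, layer 5 markers summed to 1266 CPM against 672.5 to 714.4 CPM in cocaine replicates 2 and 3, and astrocyte markers to 1068 CPM against 2479 to 2689 CPM. In saline replicate 1 they summed to 1415 and 1078 CPM and in yoked replicate 1 to 1219 and 1485 CPM. Their part in the levels of the 4 genes was not tested.

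The input library gives levels in total RNA, and the unbound library gives levels in RNA left after the pull-down. Ift27 was at 13.3 CPM in the saline input (95% exact Poisson interval for counting error 12.3 to 14.5), above all saline and yoked IP libraries and below all cocaine IP libraries. Nmral1 was at 9.81 CPM in the input, also above the saline and yoked IP libraries, with cocaine replicate 1 above it and replicates 2 and 3 a little below. Med27 was at 38.0 CPM in the input, with the same order as Ift27. Ccdc90b was at 12.5 CPM in the input, inside the range of saline IP and above all yoked IP. With 1 input library there is no test, and the order of yoked and cocaine libraries around it follows in part from the rule.

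As ratios, saline IP over saline input had a mean log2 value of −0.32 ± 0.10 (SD, n = 3) for Ift27, −0.53 ± 0.10 for Nmral1, −0.15 ± 0.05 for Med27 and 0.04 ± 0.08 for Ccdc90b (−0.005 without saline replicate 3), beside a median of −0.03 over 18070 genes. In each saline IP library Ift27, Nmral1 and Med27 lay below the input, which 20.6% of genes did in all 3, while 17.9% lay above it in all 3. None of the 4 was at least 2-fold lower in all 3, a rule met by 1.04% of genes, or at least 2-fold higher in all 3, a rule met by 0.603%. Yoked IP over the same input had means of −0.38, −0.61, −0.32 and −0.34 in the order Ift27, Nmral1, Med27 and Ccdc90b. Cocaine IP over it had means of 0.17, 0.16, 0.14 and 0.17, which became 0.108, −0.096, 0.045 and 0.025 without cocaine replicate 1. Among 18070 genes the yoked means stood at percentiles 9.81 to 19.6 and the cocaine means at 65.5 to 68.9. The rule used the yoked and cocaine values, so their order around the input follows in part from the choice. The input also differs from these libraries in group and lane. All 3 yoked libraries were below the input for all 4 genes. The cocaine libraries were all above it for Ift27, Med27 and Ccdc90b, by as little as 0.01 in replicate 2 for the latter pair, and lay on both sides of it for Nmral1.

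The unbound library was low in 3 of the 4 genes. Med27 stood at 17.1 CPM in it (15.3 to 19.0), Ift27 at 8.43 CPM (7.20 to 9.81) and Nmral1 at 5.75 CPM (4.75 to 6.91), on 339, 167 and 114 counts. Ccdc90b stood at 12.01 CPM (10.5 to 13.6), close to the input. The log2 ratio of cocaine IP to unbound averaged 1.29 ± 0.165 (SD, n = 3) for Med27, 0.92 ± 0.44 for Nmral1, 0.83 ± 0.13 for Ift27 and 0.23 ± 0.25 for Ccdc90b, the last falling to 0.081 without cocaine replicate 1. Med27 was at least 2-fold higher in all 3 libraries, as were 0.83% of 18070 genes, beside 5.03% at least 2-fold lower. All 4 were higher in all 3, as were 26% of genes, beside 29.7% lower in all 3. The cocaine libraries were chosen for being high. The saline input, which the rule did not use, was above the unbound library by 1.15 for Med27, 0.76 for Nmral1 and 0.66 for Ift27 on the log2 scale. For Ccdc90b the 2 libraries were close (0.06). In this order the values stood at percentiles 94.9, 88.9, 85.8 and 52.2 of all genes, whose median was 0.02. Since the unbound library had its own lane, its lane cannot be told apart from its fraction. Set against the saline input, its cocaine group cannot be told apart from its fraction either. The unbound library also held 7.336% of its counts as ambiguous between genes, against 1.555% to 1.907% in the other libraries. Counts of reads aligned to more than 1 place made up 28.26% in it, against 35.59% to 47.05%. The part of these differences in the ratios was not tested.

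**Figure D3:**
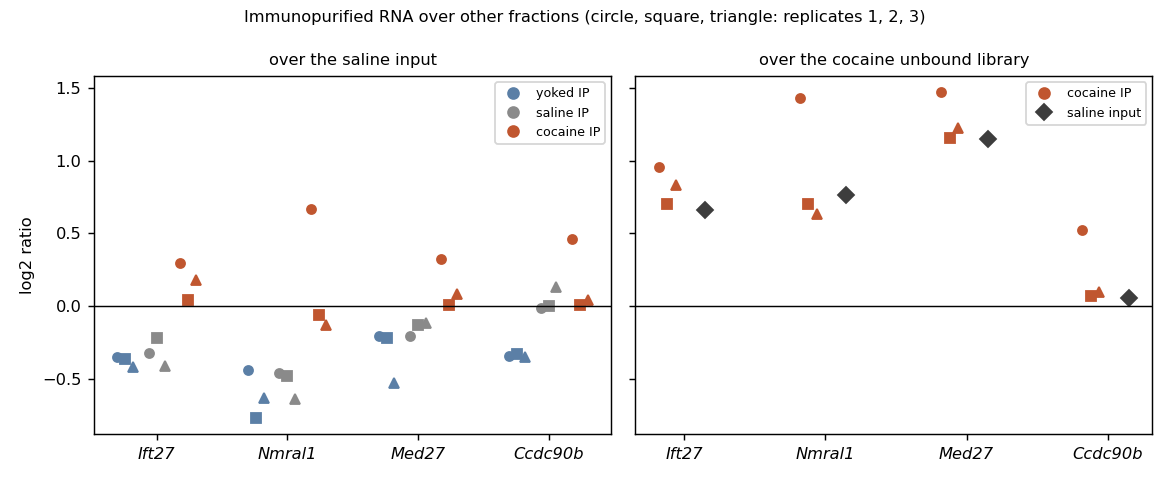
Log2 ratio of each IP library over the saline input (left) and of cocaine IP libraries and the saline input over the cocaine unbound library (right), by gene. Yoked IP libraries lie below the input for all 4 genes, with means of −0.61 to −0.32, and cocaine IP means lie at 0.14 to 0.17, or at −0.096 to 0.108 without cocaine replicate 1. The genes were chosen on these yoked and cocaine values.

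Divided by the merged exon length, Med27 was the most abundant in each IP group and the input, at 12.7 CPM per kb in cocaine IP, 10.3 in saline IP, 9.26 in yoked IP and 11.5 in the input. Ccdc90b followed at 7.89, 7.14, 5.46 and 6.93 CPM per kb, then Ift27 at 5.26, 3.74, 3.58 and 4.66, then Nmral1 at 2.91, 1.75, 1.65 and 2.52. The order of the genes was the same in the 3 IP groups and the input. In the unbound library Ccdc90b, at 6.67 CPM per kb, was above Med27 at 5.17, with Ift27 at 2.94 and Nmral1 at 1.48. The lengths are from GENCODE M21 (1.801 to 3.891 kb), which may differ from the annotation used for counting.

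Among the partners of Ift27, no gene passed the edgeR test between groups. Of 16 IFT-B genes, 14 were above yoked and 2 below, with a median log2 fold change of 0.25 beside 0.01 over all genes, and 12 were above saline, with a median of 0.14 beside 0.03. Within replicate numbers 1, 2 and 3 the IFT-B median over yoked was 0.28, 0.09 and 0.23. Hspb11, which binds Ift27, was at 7.83 to 17.6 CPM in cocaine, 6.11 to 9.21 in yoked and 8.47 to 11.4 in saline (0.54 ± 0.345 over yoked, SE; edgeR adjusted p = 0.972), so its groups overlapped. The IFT-B genes Ift88 (0.06 ± 0.21) and Ift172 (0.03 ± 0.375) had values over yoked near those of all genes.

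The other complexes of ciliary transport are listed for comparison. Of 7 genes listed for IFT-A, which serves return transport, 4 were above yoked (median 0.03), among them Ift140 at 0.03 ± 0.24 (SE). The list counts Tulp3, a partner of IFT-A, with the subunits. Of 14 BBSome genes and partners, 12 were above yoked (median 0.26, and 0.26, 0.063 and 0.28 within numbers 1, 2 and 3) and 13 above saline (0.19). Arl6, the small GTPase that recruits the BBSome to membranes, was at 0.35 ± 0.315, Bbs4 at 0.31 ± 0.25, Lztfl1 at 0.10 ± 0.17 and Bbs1 at −0.05 ± 0.18 over yoked. The 10 markers of ependymal cells, which carry many motile cilia, and choroid plexus summed to 12.6 to 19.2 CPM in cocaine IP and 15.8 to 16.9 in yoked IP, with 0 genes lacking counts in either group.

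Mediator is given by its core and its kinase module, and a difference between them was not tested. Of 25 core subunits other than Med27, 23 were above yoked, with a median log2 fold change of 0.265, and 19 above saline, with a median of 0.12. Within numbers 1, 2 and 3 the core median over yoked was 0.48, −0.01 and 0.275. Med30 was at 0.60 ± 0.40 (SE), Med17, a head scaffold, at 0.48 ± 0.32 and Med29 at 0.28 ± 0.34, whereas Med14, the central scaffold, was at −0.03 ± 0.21, Med23 at 0.05 ± 0.16 and Med1, which binds nuclear receptors, at −0.13 ± 0.24. Of the 7 genes of the kinase module, which can detach from the core, 5 were below yoked (median −0.21, and −0.515, −0.066 and −0.18 within numbers): the kinase Cdk19 was at −0.37 ± 0.69, its paralog Cdk8 at 0.02 ± 0.17, Med12 at −0.05 ± 0.23 and the cyclin Ccnc at 0.24 ± 0.24. None of these 32 genes passed the edgeR test between groups.

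The uniporter and mitochondrial list around Ccdc90b had 6 of 9 genes above yoked (median 0.125, and 0.26, 0.11 and −0.031 within numbers 1, 2 and 3) and 6 above saline (0.165). The paralog Mcur1 was at 9.93 to 23.6 CPM in cocaine and 12.6 to 26.0 in yoked (−0.19 ± 0.44 over yoked, SE; edgeR adjusted p = 0.972). Mcu, the pore, was at −0.01 ± 0.18, its regulator Micu3 at 0.14 ± 0.29, and Smdt1, a small subunit of the channel, at 0.87 ± 0.51. Smdt1 had a larger value than Ccdc90b but ranged from 48.1 to 181.7 CPM in cocaine, overlapping yoked at 36.6 to 69.5 CPM.

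Around Nmral1, 12 of 15 NADPH and argininosuccinate enzymes were above yoked (median 0.14) and 11 above saline (0.22). Within numbers 1, 2 and 3 the median over yoked was 0.10, −0.032 and 0.24. Ass1, argininosuccinate synthetase, was at 0.41 ± 0.34 (SE) over yoked and Asl, the next enzyme, at 0.41 ± 0.25. The NADPH-producing enzymes G6pdx and Pgd were at 0.23 ± 0.21 and 0.14 ± 0.23. The values farthest from 0 in this list were below yoked: H6pd, which makes NADPH in the endoplasmic reticulum, was at −0.90 ± 0.23, with 3.07 to 4.28 CPM in cocaine and 6.06 to 8.43 in yoked, and Aldh1l2, which makes it in mitochondria, was at −0.97 ± 0.825. Both were named after their values were seen. Of 15 NF-kappaB genes 7 were above yoked (median −0.04, and 0.118, −0.032 and −0.037 within numbers), with the subunit Rela at −0.04 ± 0.19 and Commd7 at 0.55 ± 0.29. In the fit without the replicate number, the edgeR adjusted p was at least 0.972 for every gene of the 8 lists in cocaine against yoked.

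Over the 108 genes of these lists, 4 (3.7%) had all cocaine above all yoked libraries, beside 3.08% of all genes, and 2 (1.85%) had the reverse, beside 2.55%. The 4 were Ift43, Med4, Med6 and Commd7 and the 2 were H6pd and Nfkb1, named after their values were seen. These shares are near the background. The libraries numbered 1 moved the same lists: 11 of 16 IFT-B genes, 9 of 14 BBSome genes and 17 of 25 Mediator core genes rose in them by the edgeR test, with 0, 0 and 1 that fell, where 27.6% of all genes rose and 27.7% fell. In the kinase module 4 of 7 fell and 1 rose. Cdk19 fell by 1.93 ± 0.12 (SE; edgeR adjusted p = 1.77e-08) and Mcur1 fell by 1.13 ± 0.13 (4.5e-06) on the log2 scale, while Hspb11 rose by 0.69 ± 0.16 (0.00215). Nuclear noncoding RNAs, all 8 of them, had values below yoked in cocaine, with a median of −0.56 and sums of 205.4 to 5338 CPM in cocaine against 414.2 to 7247 in yoked. Endothelial and mural markers were below in 11 of 12 (median −0.43), with sums of 23.9 to 25.9 CPM in cocaine against 22.9 to 39.7 in yoked, and 0 genes of either list lacked counts. None of them passed the test between groups, and their part in the values of these lists was not tested.

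**Figure D4:**
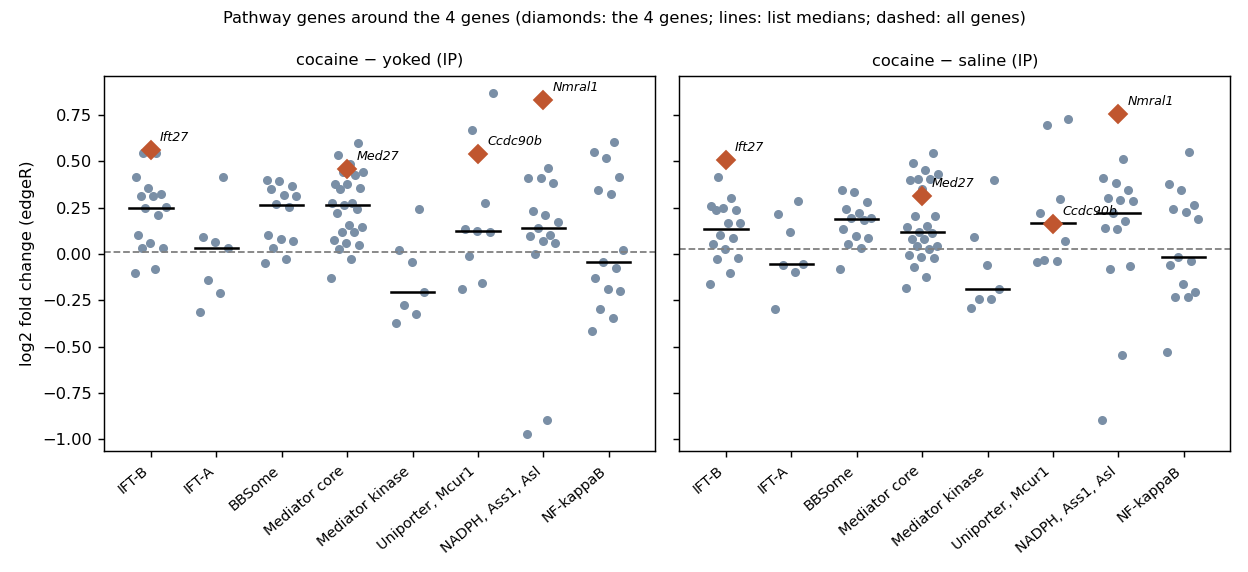
Log2 fold change of each gene of the 8 lists in cocaine against yoked (left) and against saline (right), with list medians as black lines, all genes tested as a dashed line and the 4 chosen genes as diamonds. Mediator core genes have a median of 0.265 over yoked and kinase module genes −0.21, with wide overlap.

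The nearest protein-coding neighbours in RefSeq were each tested in the same fit, and none was called. Beside Ift27 on chromosome 15, Pvalb, the parvalbumin gene of fast-spiking interneurons, lay 17.03 kb away and was at 56.5 ± 20.8 CPM in cocaine against 39.2 ± 5.30 in yoked (SD, n = 3 each; 0.54 ± 0.26 log2, SE). On its other side Cacng2 was at −0.11 ± 0.23. Beside Nmral1 on chromosome 16, the heme oxygenase gene Hmox2 was at 0.17 ± 0.15 and Dnaja3 at 0.30 ± 0.29. Ntng2 and Rapgef1, around Med27, were at −0.33 ± 0.19 and −0.12 ± 0.24. Dlg2 and Ankrd42, around Ccdc90b, were at −0.26 ± 0.29 and −0.05 ± 0.21. Ankrd42, which shares exon bases with Ccdc90b in GENCODE M21 but not in RefSeq, was at 19.2 ± 1.104 CPM in cocaine and 19.9 ± 3.51 in yoked (SD, n = 3 each).

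Genes of like pattern were sought by Pearson's r of log2 CPM over the 9 IP libraries, among 9897 named genes of at least 5 CPM. All genes are read from the same libraries, of which those numbered 1 stood apart, so r describes likeness across these libraries, and no p is given. For Ift27 the closest were Sybu (r = 0.966), Ugp2, Zcchc12, Crat and Nmral1 (0.919). For Nmral1 they were Dbp (0.96), Cbr3, Dnajb1, Pcgf1 and Sybu (0.936). For Med27 they were Tprkb (0.956), Chchd3, Rasl10a, Commd10 and Atp5sl (0.951), and for Ccdc90b Ppp1cc (0.941), Mtfr1l, Commd10, Cdk9 and Nufip1 (0.914). Of these 17 genes other than the members, 16 had all cocaine above all yoked libraries, which follows from likeness to genes chosen that way. Their log2 fold changes over yoked ran from 0.19 to 0.67, with Cbr3 at 0.67 ± 0.27 (SE) and Pcgf1, the exception, at 0.67 ± 0.31. Sybu was near both Ift27 and Nmral1, and Commd10 near both Med27 and Ccdc90b.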

How the data were processed

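RNA was sequenced in 9 IP, 1 input and 1 unbound library. The authors deposited raw read counts per gene symbol. The submitters' processing notes name STAR 2.0.0e, HTSeq and mm10; the sources used here give no HTSeq version, annotation or strand setting. Each file holds 32537 entries, of which 6 that name no gene were left out; genes held 44.9% to 52.5% of all entries' counts.

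In R 4.3.3, edgeR 4.0.16 was run on the 9 IP libraries with a mean for each group, TMM scaling, filterByExpr, robust quasi-likelihood and Benjamini-Hochberg adjustment over 16417 genes at 0.05. The SE is the fold change divided by the root of the F statistic. The replicate number was tested with group as a term. In the IP labels each number has its own index sequence, the same in every group, so number and index cannot be told apart. Levels are CPM scaled over all 11 libraries; ratios between fractions use a prior count of 2. The fit was also run on simulated counts without a replicate-number difference, so that run does not show how the fit behaves on data with one. Counts include PCR copies, so intervals cover counting error only. At 114 to 1997 counts per library for the 4 genes, counting error was 2.24% to 9.37%.

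Samples with the same replicate number deviated together from their group means (r = 0.376 to 0.794 over genes, in all 9 pairs), so a block fit was run; the pairing comes from the numbers in the labels and this check. Numbers 2 and 3 also correlated with each other across groups, and 6 of 9 libraries correlated best with their own number, so the check mainly sets number 1 apart. Alternatives were other scalings, DESeq2 1.42.0, no filter, fewer or more libraries, and each IP library left out, which for cocaine and yoked IP over input was added after seeing the data. The 4 genes and the lists were chosen with earlier results of these data known. Named genes are the 4, a fixed set of partners (1 of which is not reported here), list genes past the threshold between groups (0; those past it for the replicate number are given as counts), nearest neighbours and the 5 genes of most like pattern. Of the listed symbols, Ttc30a2, Rabl5, Ccdc90a and Mcub matched no entry. A gene can be entered under another symbol, as Ccdc90a is under Mcur1.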

Additional observations from a re-analysis of the deposited data

How the results depend on the processing

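Cocaine exceeded yoked for Ift27, Nmral1, Med27 and Ccdc90b under every alternative run, and 0 genes were called between groups under each. With the replicate block, cocaine against yoked was 0.56 ± 0.15 for Ift27, 0.80 ± 0.185 for Nmral1, 0.46 ± 0.13 for Med27 and 0.53 ± 0.16 (SE) for Ccdc90b, and the block changed no call. Over all genes, the lowest edgeR adjusted p in that comparison was 0.972 without the block and 0.13 with it. In cocaine against saline the lowest was 0.377 with the block. Leaving out 1 library gave, against yoked, 0.48 to 0.61 for Ift27, 0.505 to 0.97 for Nmral1, 0.35 to 0.52 for Med27 and 0.36 to 0.61 for Ccdc90b. Against saline it gave 0.43 to 0.55, 0.43 to 0.89, 0.20 to 0.35 and −0.016 to 0.22. The lowest value came without cocaine replicate 1 in each case. Without all libraries numbered 1, Ccdc90b was at 0.365 against yoked and −0.039 against saline, and 3570 genes had all cocaine above all yoked libraries. That count is not comparable with the 3.08% of 16417 genes in the main setting. Fewer libraries then have to be in order, the libraries that stood apart are gone and the filter was run anew. Their parts in the count were not tested.

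For libraries numbered 1, the log2 value of Nmral1 was 0.385 with DESeq2's size factors in edgeR (adjusted p = 0.05, rounded) and 0.352 with library size only (0.0646). It was 0.19 to 0.56 with 1 library left out, and then Ift27 ran from 0.027 to 0.147, Med27 from 0.052 to 0.25 and Ccdc90b from −0.03 to 0.26. For number 3 against 2, leaving out 1 library gave −0.12 to 0.038 for Ift27, −0.135 to 0.11 for Nmral1, −0.16 to 0.021 for Med27 and −0.038 to 0.16 for Ccdc90b. The count called there was 8 with DESeq2, 8 without a filter and 0 to 7 with 1 library left out. Med27 in saline IP over input was −0.21 with library size only. The causes of these differences were not tested. Precision is limited by single input and unbound libraries, by 3 libraries a group and, for the unbound library, by counting errors of up to 9.37%.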
